A study of Mus musculus with 2 samples.

Results

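The 12 embryos described here are the 2CB and 4CB pseudoblastocysts, 6 of each, among 24 embryos of the 1C, 2CB, 4CB and 8CB groups sequenced singly. They were taken by name, as the 6 columns of 2CB embryos and the 6 columns of 4CB embryos in the count table, and no measured value was used to choose them. 2CB embryos grew from single blastomeres isolated at the 2-cell stage, 24 hours post-insemination (hpi), and 4CB embryos from single blastomeres isolated at the 4-cell stage, 48 hpi. Oocytes of B6D2F1 females aged 8 to 9 weeks were fertilised in vitro with sperm of ICR males aged 15 to 20 weeks. Zonae were removed with Actinase E, the blastomeres were cultured one by one, and embryos with a cavity were collected at 96 hpi without a check of their inner cell mass. Another 12 embryos, 1C and 8CB, were sequenced in a separate pool and serve here only for comparison. The oocytes came from F1 females and the sperm from outbred males, so embryos from different zygotes differ genetically. Which blastomeres were sisters, and which embryos shared parents, is not stated, so the p-values below measure the spread between these embryos.

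A mouse blastocyst holds 3 cell types. The trophectoderm, marked by Cdx2, forms the outer wall and later the placenta, and the inner cell mass divides into the epiblast, marked by Nanog and Sox2, and the primitive endoderm, marked by Gata4 and Sox17. Primitive endoderm forms from inner cells that receive FGF signals through the ERK pathway, and it lays down a basement membrane of laminin and type IV collagen. Each column of counts here is 1 whole embryo, so a low level of a lineage's genes from fewer cells of that lineage and from less RNA per cell cannot be told apart.

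All 12 embryos were barcoded and pooled in 1 CEL-Seq2 library, which counts unique molecular identifiers (UMIs) at the 3' ends of transcripts. Totals ranged from 332867 to 1507471 UMIs in the 2CB embryos, with a median of 519932, and from 132725 to 1130360 in the 4CB embryos, with a median of 216325. The floor of 3 UMIs therefore stood for 1.95 to 22.6 normalised counts (CPM, UMIs scaled to a common library size) depending on the embryo, and covers counting error only. Genes detected per embryo ranged from 8959 to 14880, and from 8959 to 10026 once every embryo was thinned at random to 132725 UMIs. Pairwise correlations of log2 CPM between embryos lay between 0.690 and 0.882, and 4CB 6, the sixth 4CB embryo, had the lowest mean correlation with the others, at 0.737.

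Variation was measured as the dispersion of a gene, the squared coefficient of variation between embryos beyond counting noise, after the mean of each stage was removed. The ratio of a gene's dispersion to that of genes at the same level is called its ratio below, and a gene is said to be above the trend when a goodness-of-fit test of edgeR gave an adjusted p below 0.1. Of 6964 genes tested, 418 were above the trend, 6.0% of all, and 844 had an unadjusted p below 0.05. The median coefficient of variation between embryos was 0.907 among the genes above the trend and 0.366 among all genes tested. Their ratios ran from 2.38 to 29.0, with a median of 3.84. The 3 genes nearest the threshold from inside were Dclre1c, Cpd and Usp9x, with ratios of 3.10, 2.84 and 2.59, and the 3 nearest from outside were Alpl, Ppp1r14a and Klf3, with 2.57, 2.64 and 2.55. In 12 of the 418 genes a single embryo gave over 50% of the deviance, and in 1 of those 12 that embryo was high. The median size of the correlation with log total UMIs was 0.293 in the genes above the trend and 0.334 in all genes. At equal depth, with every embryo thinned, 246 genes were above the trend, of which 226 were among the 418.

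**Figure D1:**
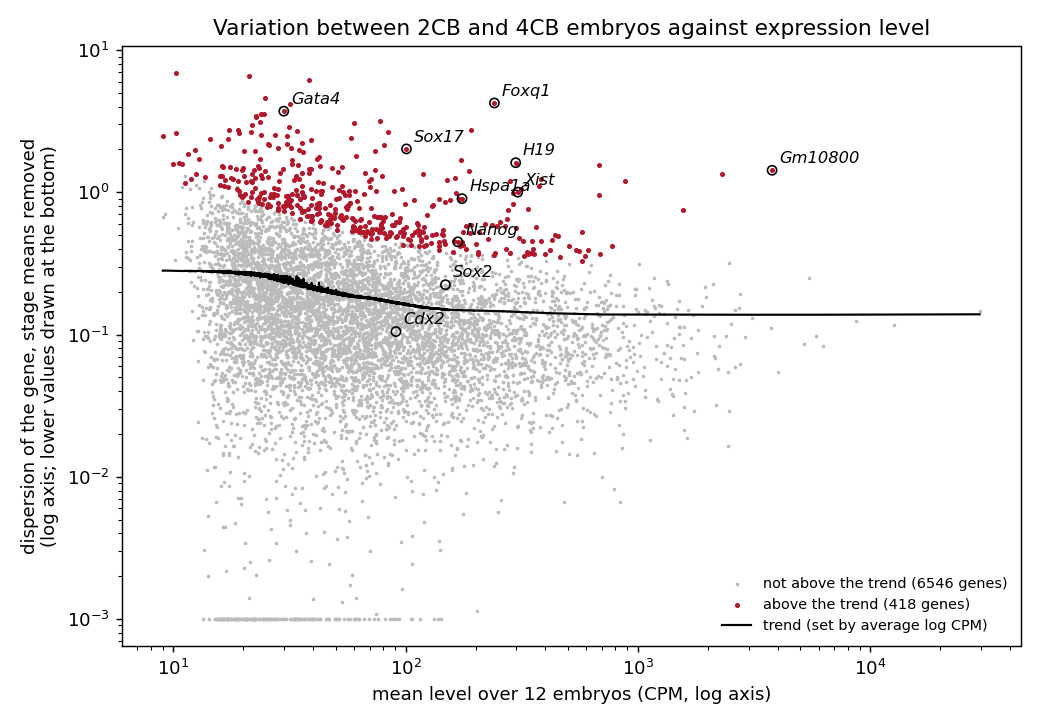
Dispersion of each of 6964 genes between embryos, stage means removed, against its mean level in CPM, both on log axes. Red points are the 418 genes above the trend, the black line is the trend, and circles mark named genes. Gata4, Sox17 and Foxq1 lie far above the line while Cdx2 lies below it.

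The 2 stages were also examined one at a time. Among the 6 2CB embryos alone 210 of 6932 genes were above the trend, 3.03%, and among the 6 4CB embryos alone 168 of 6089, 2.76%. At equal depth the 2CB count was 79 and the 4CB count 122. Over the 6057 genes tested in both stages, 66 were above the trend in both, which is 37.9% of the 174 in 2CB and 41.3% of the 160 in 4CB, beside 2.64% of all 6057 in 4CB. In the 1C and 8CB embryos, which are other embryos in another library of shallower depth (70941 to 368348 UMIs), 259 of 4211 genes were above their own trend, 6.15%. Over 4088 genes tested in both pools, 84 were above the trend in both, 42.4% of the 198 in 2CB and 4CB and 36.4% of the 231 in 1C and 8CB, beside 5.65% of all 4088.

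Primitive endoderm genes had the highest median ratio of the 3 lineage lists. All lists used here were chosen with earlier results of these data known, so their values beside those of all genes are a description. Of 19 genes listed, 14 were tested and 8 were above the trend, namely Sox17, Gata4, Pdgfra, Serpinh1, Lama1, Sparc, Col4a1 and Col4a2, and the median ratio over the 14 was 3.64 beside 0.708 over all genes. The share above the trend was 57.1%, beside 6.0% over all genes. The count was 8 at equal depth, 7 to 9 with each embryo left out in turn, 5 by the dispersion outliers of DESeq2 and 10 by scran. Over all 6964 genes DESeq2 called 1.41% and scran 22.2%, and the counts by these tools below stand beside those shares. The count by edgeR was 7 of 14 in 2CB alone, 4 of 13 in 4CB alone and 1 of 5 in the 1C and 8CB embryos. Over all genes tested in those embryos the shares were 3.03%, 2.76% and 6.15%.

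Gata4 (GRCm38 chr14:63198922-63271692, minus strand) encodes a zinc finger factor needed for primitive endoderm. In 2CB 1 to 2CB 6 it stood at 2.69, 16.2, 43.9, 77.5, 0 and 0 CPM, and in 4CB 1 to 4CB 6 at 0, 0, 167, 24.6, 7.54 and 19.1 CPM. The highest embryos were 4CB 3 and 2CB 4, and 4 embryos, a pair in each stage, had no UMI. These values rest on 209 UMIs in all, 85 of them in 4CB 3. Its ratio was 15.9, with an adjusted p of 6.59e-10 by edgeR.

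Sox17 (chr1:4490931-4497354, minus strand), an HMG-box factor of endoderm, stood at 88.7, 201, 253, 163, 5.63 and 6.13 CPM in 2CB 1 to 2CB 6 and at 44.2, 0, 273, 48.3, 0 and 127 CPM in 4CB 1 to 4CB 6. It was highest in 4CB 3, 2CB 3 and 2CB 2, and 2CB 5, 2CB 6, 4CB 2 and 4CB 5 were at 6.13 CPM or less. Its ratio was 12.5, with an adjusted p of 5.96e-12. Pdgfra, the PDGF receptor that marks early primitive endoderm, ran from 12.3 to 174 CPM in 2CB, with a median of 82.5, and from 0 to 191 CPM in 4CB, with a median of 51.3. Its highest embryos were again 2CB 4 and 4CB 3.

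The other members above the trend make or fold basement membrane. Serpinh1, the collagen chaperone HSP47, had a lowest, median and highest level of 9.19, 31 and 404 CPM in 2CB and 6.42, 17.7 and 185 CPM in 4CB. Lama1, the laminin alpha-1 chain, had 34.9, 80.4 and 650 CPM in 2CB and 22.6, 81.2 and 224 CPM in 4CB. Sparc, a collagen-binding matrix protein, ran from 123 to 1000 CPM in 2CB and from 136 to 625 CPM in 4CB. Col4a1 and Col4a2, the type IV collagen chains, ran from 15.3 to 226 and from 39.8 to 168 CPM in 2CB, and from 15.1 to 165 and from 3.69 to 104 CPM in 4CB. They lie head to head on opposite strands of chromosome 8 and their annotated starts overlap, and the strand setting of the counting is not given in the sources used here. Col4a2 (adjusted p 0.0350) was not above the trend without 4CB 1, at 0.259. Gata6, which acts at the start of primitive endoderm and is also made in other cells of the blastocyst, was present in every embryo at 178 to 767 CPM and was not above the trend.

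The primitive endoderm genes above the trend moved together. All 28 pairs of the 8 genes were positively correlated over the 12 embryos, stage means removed, with r from 0.55 to 0.92 and a mean of 0.77. These points share 1 library and a wide range of depth. Over all 14 members the mean r was 0.38, beside 0.02 over all genes tested. It was 0.52 within 2CB, 0.33 within 4CB and 0.32 at equal depth, and 0.19 in the 1C and 8CB embryos. Within its stage 2CB 4 was the highest embryo for 7 of the 14 members and 2CB 3 for 6, and 4CB 3 was the highest for 9. Over all genes those embryos were highest in 16.0%, 17.0% and 13.6% of cases. 2CB 6 was the lowest 2CB embryo for 7 members, beside 18.3% of all genes. Foxa2, Amn and Cubn, too low to be tested, were also highest in 2CB 4, at 56.5, 53.3 and 16.2 CPM. Other genes of the list did not follow these embryos. Hnf4a was highest in 4CB 2, at 83.5 CPM from 13 UMIs, where Gata4 and Sox17 had no UMI, and Lrp2, an endocytic receptor that works with Cubn and Amn, was highest in 2CB 5, at 1327 CPM against 958 CPM in 2CB 4. The endocytic adaptor Dab2 had a ratio of 0.212. Those 6 genes were named after their values were seen, and Hnf4a, Lrp2 and Dab2 were tested and not above the trend.

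Genes outside the list followed the same embryos. Foxq1 (chr13:31556134-31560976, plus strand), a forkhead factor, had the highest ratio of the genes tested at 50 CPM or more, 29.0. It stood at 5.38, 69.5, 501, 1297, 0.938 and 0 CPM in 2CB 1 to 2CB 6 and at 14.7, 0, 757, 50.9, 7.54 and 191 CPM in 4CB 1 to 4CB 6. It was highest in 2CB 4, 4CB 3 and 2CB 3, and 2CB 5, 2CB 6 and 4CB 2 held at most 0.938 CPM. Flrt3, a membrane protein of cell adhesion and FGF signalling, had a ratio of 16.7 and reached 232 CPM in 2CB 3 and 206 CPM in 4CB 3, with no UMI in 2CB 6 and 4CB 2. Ckap4, an endoplasmic reticulum membrane protein, had a ratio of 9.62 and ran from 35.7 to 787 CPM in 2CB and from 11.1 to 450 CPM in 4CB.

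**Figure D2:**
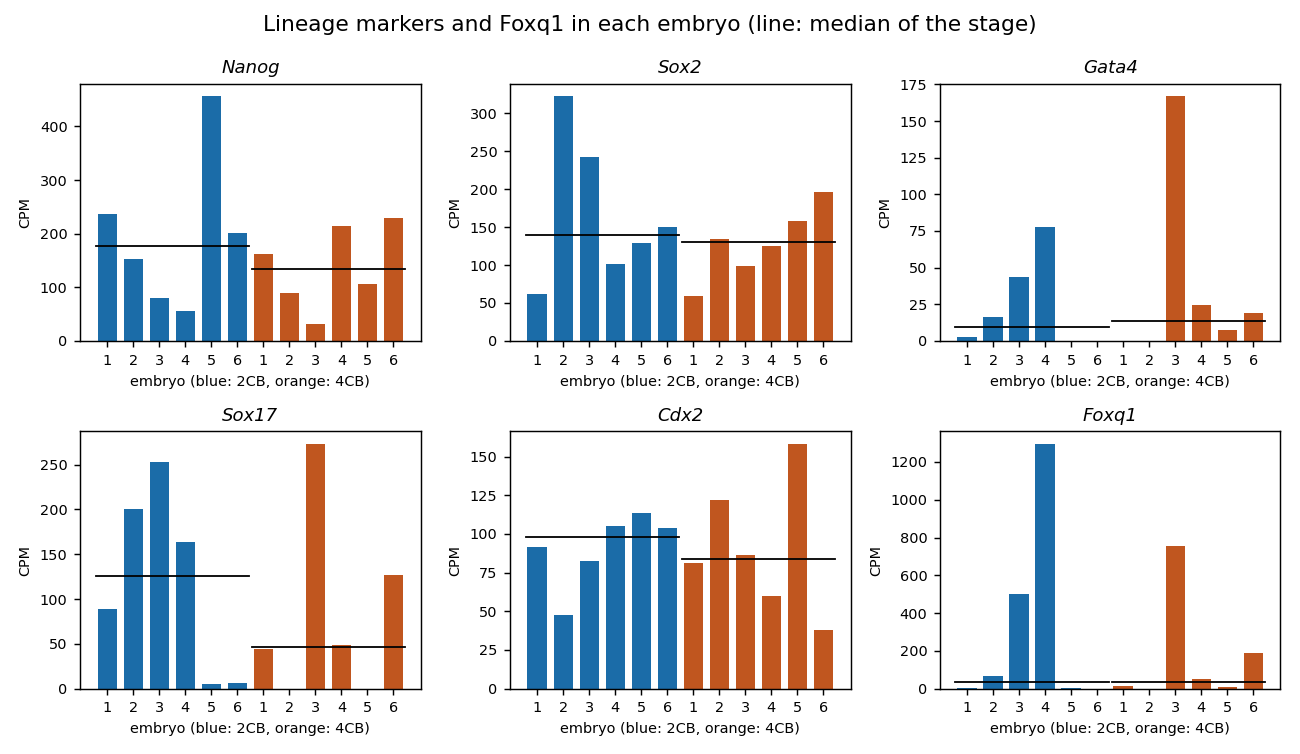
CPM of 5 lineage markers and Foxq1 in each embryo, 2CB in blue and 4CB in orange, with a black line at the median of the stage and the vertical axis from 0. Gata4 and Foxq1 were highest in 2CB 3, 2CB 4 and 4CB 3, where Nanog was at 80.0 CPM or less, and Cdx2 lay between 38.1 and 158 CPM in all 12.

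The 10 pairs of the 5 markers Nanog, Sox2, Gata4, Sox17 and Cdx2 were tested for correlation over the 12 embryos, with 100000 permutations within stage, two-sided, and p-values adjusted over the 10 pairs. Gata4 and Sox17 were positively correlated, with r = 0.77 (permutation p 0.00859, adjusted 0.0859) and Spearman's rho 0.77 (adjusted permutation p 0.0858). Their r was 0.85 in 2CB, 0.71 in 4CB, 0.75 at equal depth and 0.72 without 4CB 3 and 2CB 4, the 2 embryos farthest from the median of Gata4. In the 1C and 8CB embryos, where Gata4 and Sox17 had too few UMIs to be tested for variation, it was -0.45, and r was 0.18 for Nanog with Gata4 and 0.29 for Sox17 with Cdx2. The difference between the pools was not tested.

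Nanog and Gata4 were opposed, with r = -0.67 (permutation p 0.0265, adjusted 0.0882), but rho was -0.47 (adjusted permutation p 0.489). Without 4CB 3 and 2CB 4, the 2 embryos farthest from the median of Nanog, r was -0.28, so the relation depends on those embryos. Their r was -0.91 within 2CB, -0.43 within 4CB and -0.68 at equal depth. Sox17 and Cdx2 were also opposed, with r = -0.68 (permutation p 0.0249, adjusted 0.0882) and rho -0.71 (adjusted permutation p 0.116). Without 4CB 2 and 4CB 5 that r was -0.50. The other 7 pairs had adjusted permutation p-values from 0.443 to 0.984, and for Nanog with Sox2 r was -0.01. No pair passed 0.1 when 2CB 2, 2CB 3, 2CB 4, 2CB 5, 2CB 6 or 4CB 2 was left out. One pair passed without 2CB 1, 4CB 1, 4CB 3 or 4CB 5, 2 pairs passed without 4CB 4, and 3 passed without 4CB 6. With an embryo left out the r of Gata4 and Sox17 stayed between 0.71 and 0.86, that of Nanog and Gata4 between -0.78 and -0.50, and that of Sox17 and Cdx2 between -0.78 and -0.54.

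Of 16 epiblast and inner cell mass genes 12 were tested and 3 were above the trend, Nanog, Gdf3 and Tdgf1, with a median ratio of 1.37 over the 12. That share was 25%, beside 6.0% over all genes, and the count was 0 by DESeq2 and 7 by scran, so none of the 3 calls held by DESeq2. At equal depth, and also without 2CB 4, 1 of them was. Nanog (chr6:122707489-122714633), a homeobox factor of pluripotency, stood at 237, 153, 80.0, 54.9, 457 and 202 CPM in 2CB 1 to 2CB 6 and at 162, 89.9, 31.5, 214, 106 and 229 CPM in 4CB 1 to 4CB 6. It was highest in 2CB 5 and lowest in 4CB 3 and 2CB 4, the embryos with most Gata4. Its ratio was 3.02 (adjusted p 0.0256 by edgeR), and the call was lost without 2CB 4, 2CB 5 or 4CB 3, at 0.152, 0.239 and 0.196.

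Gdf3, a TGF-beta family ligand, had a ratio of 4.93 (adjusted p 0.00628). It ranged from 0 to 52.6 CPM in 2CB and reached 127 CPM in 4CB 6 against 0 to 22.9 CPM in the other 4CB embryos, and without 4CB 6 it was not above the trend, at 0.275. Tdgf1, the Nodal co-receptor Cripto, had a ratio of 3.04 and an adjusted p of 0.0629, and its call was lost without 2CB 1, 2CB 2, 2CB 4, 2CB 5 or 4CB 4, at 0.173, 0.244, 0.159, 0.102 and 0.117. Sox2 (chr3:34650405-34652461), which lies within the long noncoding gene Sox2ot, had a lowest, median and highest level of 61.8, 140 and 323 CPM in 2CB and 59.0, 130 and 197 CPM in 4CB. It was not above the trend, with a ratio of 1.5 and an adjusted p of 0.711. Pou5f1, a defining factor of the inner cell mass, had 20 UMIs over the 12 embryos, at most 4 UMIs or 6.46 CPM in any of them. It had no UMI in 2CB 6, 4CB 1, 4CB 2 and 4CB 5, and was named after its values were seen. Whether these few UMIs reflect the level of its transcripts was not tested.

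Of 20 trophectoderm genes 18 were tested and 3 were above the trend, Elf5, Krt7 and Eomes, and the median ratio was 1.05. That share was 16.7%, beside 6.0% over all genes. Without 2CB 5 the count was 1, and it was 1 by DESeq2 and 8 by scran. Cdx2 (chr5:147300805-147307270), the homeobox factor that specifies trophectoderm, stood at 91.4, 47.4, 82.6, 105, 114 and 104 CPM in 2CB 1 to 2CB 6 and at 81.1, 122, 86.5, 60.2, 158 and 38.1 CPM in 4CB 1 to 4CB 6. Every embryo expressed it, and its ratio of 0.63 was below the median of all genes tested, 0.708. Elf5, an ETS factor of trophoblast stem cells, varied most in this list, with a ratio of 8.22 (adjusted p 5.06e-12). It stood at 94.1, 45.5, 601, 320, 32.8 and 85.8 CPM in 2CB 1 to 2CB 6 and at 335, 1047, 393, 40.7, 377 and 19.1 CPM in 4CB 1 to 4CB 6. It was highest in 4CB 2 and lowest in 4CB 6.

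Eomes, a T-box factor of trophoblast, ran from 141 to 1174 CPM in 2CB and from 438 to 1165 CPM in 4CB (ratio 2.76, adjusted p 0.0318), and its call was lost without 2CB 3 or 2CB 5, at 0.856 and 0.111. Krt7, a keratin of the epithelium, ran from 16.2 to 165 CPM in 2CB and from 22.6 to 184 CPM in 4CB (ratio 3.32, adjusted p 0.0178), and its call was lost without 2CB 5, at 0.155.

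One 4CB embryo was low over many trophectoderm genes. 4CB 6 was the lowest 4CB embryo for 13 of the 18 genes, beside 21.3% of all genes tested, and its list score, the mean over the list of levels with the stage mean removed and divided by their SD, was -1.47 against 0.167 to 0.522 in the other 4CB embryos. Its summed level over the list, 4592 CPM, was the lowest but close to that of 2CB 2, at 4934 CPM, and 2CB 5, at 5503 CPM, and the highest was 9201 CPM in 4CB 1. Lgals3, a galectin, was at 0 CPM there and 7.54 to 77.1 CPM in the other 4CB embryos, and Fgfr2, the FGF receptor of trophectoderm, was at 19.1 against 72.1 to 203 CPM. In 4CB 6 both genes were at or below the floor of 3 UMIs, 19.1 CPM there. The 7.54 CPM of Lgals3 is 1 UMI in 4CB 5, where the floor is 22.6 CPM. Both genes were named after their values were seen. 4CB 6 is also the second shallowest embryo, with 151769 UMIs, has the lowest mean correlation with the rest, and is the only 4CB embryo with more than 2 UMIs of Y-linked genes, at 42. The part of these in its trophectoderm level was not tested. The trophectoderm and epiblast scores had r = -0.44 over the 12 embryos and 0.02 without 4CB 6. It was -0.71 at equal depth, -0.85 within 4CB and -0.19 within 2CB.

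**Figure D3:**
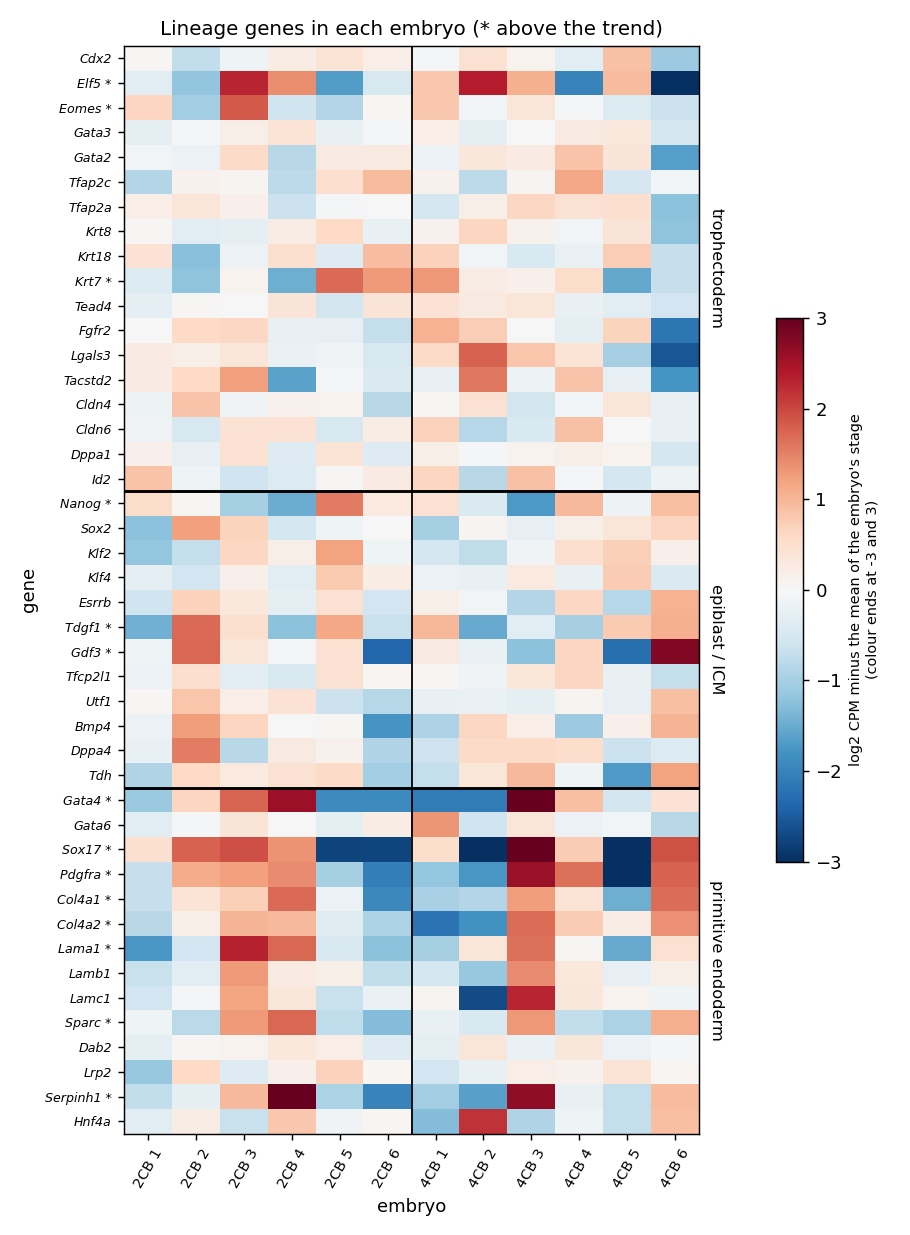
Levels of the tested trophectoderm, epiblast or inner cell mass, and primitive endoderm genes in each embryo, as log2 CPM minus the mean of the embryo's stage, in red when higher and blue when lower, with an asterisk for genes above the trend. 4CB 6 is blue over most trophectoderm genes, and 2CB 3, 2CB 4 and 4CB 3 are red over most primitive endoderm genes.

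For each marker the genes most like it over the 12 embryos were found by Pearson's r among the 3660 genes whose mean level reached 50 CPM, 6.09% of them above the trend. Gata4 was followed by Flrt3 (r = 0.95), Foxq1 (0.94), Serpinh1 (0.92) and Col4a2 (0.88), and 11 of its 20 closest genes were above the trend. Sox17 was followed by Pdgfra (0.90), Rbm34 (0.86), Foxq1 (0.85) and Fam53c (0.85), with 5 of 20 above the trend. The genes closest to Nanog were Mmgt1 (0.91), Sycn (0.89), Ugcg (0.89) and Pemt (0.87), and those closest to Sox2 were D030056L22Rik (0.86), Dsg2 (0.85), Txndc5 (0.81) and Plpbp (0.80), with 3 of 20 above the trend for each. Cdx2 was followed by Usp16 (0.92), Mcmbp (0.90), Bdp1 (0.90) and Riok1 (0.88), with 4 of 20, but at equal depth the r with Usp16 was 0.55. The genes most opposed were Aldh18a1 (-0.87) and Gnb2 (-0.81) for Nanog, Acap3 (-0.90) and Csrp2 (-0.89) for Sox2, and Cox6b1 and Por (both -0.85) for Gata4. For Sox17 they were Fyttd1 (-0.88) and Slc28a3 (-0.83), and for Cdx2 Ndufv2 (-0.89) and Txndc12 (-0.88). At equal depth several of these were weaker: Cox6b1 with Gata4 had r = -0.46, Slc28a3 with Sox17 -0.55, Csrp2 with Sox2 -0.52, Txndc5 with Sox2 0.43, and Mcmbp, Bdp1, Riok1 and Txndc12 with Cdx2 0.63, 0.49, 0.45 and -0.53.

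Heat shock genes encode chaperones that bind unfolded proteins, and their transcription is raised by the factor HSF1, which binds inverted GAA repeats near their starts. Of 19 listed 18 were tested and 6 were above the trend, Hspa1a, Hspa1b, Hspa8, Hspa4l, Hspb1 and Dnaja1, although the median ratio of the list was 0.651. That share was 33.3%, beside 6.0% over all genes. At equal depth 5 were above the trend, and 4 to 6 with an embryo left out, the lowest without 4CB 5. DESeq2 called 3 and scran 8. The inducible Hsp70 genes Hspa1a (chr17:34969190-34972156) and Hspa1b (chr17:34956436-34959238) lie next to each other on the minus strand. Of the 31-base stretches of their transcripts, 63.8% of those of Hspa1a and 67.6% of those of Hspa1b also occur in the other, so reads could be split between them and their values are uncertain one by one. Their promoters, the 250 bases before each start from RefSeq (GRCm38.p6, chr17:34972157-34972406 for Hspa1a and chr17:34959239-34959488 for Hspa1b, read 5′ to 3′ on the minus strand), are shown because both genes had high ratios and the windows hold a heat shock motif, with the motif GAANNTTC in capitals.
Hspa1a: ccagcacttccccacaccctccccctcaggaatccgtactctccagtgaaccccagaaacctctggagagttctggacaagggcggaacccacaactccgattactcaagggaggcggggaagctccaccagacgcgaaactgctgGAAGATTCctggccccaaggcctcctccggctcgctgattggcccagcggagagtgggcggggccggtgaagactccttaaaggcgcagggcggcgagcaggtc
Hspa1b: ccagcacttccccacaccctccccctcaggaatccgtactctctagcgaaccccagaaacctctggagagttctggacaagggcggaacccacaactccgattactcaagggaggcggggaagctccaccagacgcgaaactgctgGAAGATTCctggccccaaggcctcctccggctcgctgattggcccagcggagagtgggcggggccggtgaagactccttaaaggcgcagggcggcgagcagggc

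The windows agreed at 247 of 250 bases, 98.8%, and differed by C44T, T47C and T249G, with the Hspa1a base given before the position, counted from 1 at the 5′ end, and the Hspa1b base after it. The motif GAANNTTC, which reads the same on both strands, occurred once in each, as GAAGATTC starting 104 bases before the start. It occurred in 2199 of all 32851 promoter windows of this length, 6.69%, and in 2088 of 27025 genes with a window, 7.73%. Among the tested heat shock genes 7 of the 15 with a window held it, and among those above the trend 4 of 5 (Hspa1a, Hspa1b, Dnaja1 and Hspb1). A match of letters is a description and not a binding site.

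Hspa1a stood at 2.69, 19.5, 5.16, 6.46, 0 and 15.3 CPM in 2CB 1 to 2CB 6 and at 347, 347, 397, 437, 15.1 and 508 CPM in 4CB 1 to 4CB 6. Hspa1b stood at 21.5, 30.5, 0, 0, 8.45 and 6.13 CPM in 2CB and at 280, 353, 413, 497, 0 and 464 CPM in 4CB. All 2CB embryos were low for both genes, and 5 of the 6 4CB embryos were at 280 CPM or more, while 4CB 5 was as low as the 2CB embryos. The ratio was 6.08 for Hspa1a (adjusted p 0.00127) and 11.4 for Hspa1b (adjusted p 2.75e-06). Without 4CB 5 the adjusted p was 0.235 for Hspa1a and 0.0335 for Hspa1b, and at equal depth 0.221 and 0.00415. The genes had r = 0.82 over 12 embryos with stage means removed, 1.00 within 4CB and 0.20 within 2CB. 4CB 5 was the lowest 4CB embryo for 8 of the 18 heat shock genes, beside 19.9% of all genes tested. It is also the shallowest of the 12 embryos, and the part of depth in this was not tested.

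Hspa8, the constitutive Hsc70, followed other embryos. It stood at 148, 97.5, 111, 96.9, 440 and 606 CPM in 2CB 1 to 2CB 6 and at 597, 154, 631, 105, 181 and 413 CPM in 4CB 1 to 4CB 6, high in 2CB 5, 2CB 6, 4CB 1, 4CB 3 and 4CB 6 and low elsewhere (ratio 3.86, adjusted p 0.000924). Dnaja1, an Hsp40 partner of Hsc70, ran from 173 to 1898 CPM and had r = 0.80 with Hspa8. Hspa4l, an Hsp110 member, had a lowest, median and highest level of 12.9, 47.8 and 277 CPM in 2CB and 22.6, 164 and 457 CPM in 4CB (ratio 5.93). Hspb1, a small heat shock protein, reached 1144 CPM in 2CB 4 against 62.9 to 407 CPM in the other 2CB embryos.

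Of 18 p53 target genes 12 were tested and 3 were above the trend, Cdkn1a, Pmaip1 and Phlda3 (25%, beside 6.0% over all genes). The count was 2 at equal depth, 1 by DESeq2 and 7 by scran. Cdkn1a, the inhibitor p21 that stops the cycle in G1, stood at 5.38, 29.2, 372, 96.9, 129 and 202 CPM in 2CB 1 to 2CB 6 and at 516, 128, 39.3, 218, 52.8 and 12.7 CPM in 4CB 1 to 4CB 6. It was highest in 4CB 1 and 2CB 3 and lowest in 2CB 1 and 4CB 6 (ratio 8.22, adjusted p 4.49e-10). Phlda3, an inhibitor of Akt, had r = 0.78 with Cdkn1a, 0.91 at equal depth, while Pmaip1 had r = -0.07 with Cdkn1a and -0.04 with Phlda3. The call of Phlda3 (adjusted p 0.0415) was lost without 2CB 1, 4CB 1 or 4CB 5, at 0.264, 0.121 and 0.159, and at equal depth, at 0.147. Pmaip1, the apoptosis protein Noxa, ran from 2.69 to 103 CPM in 2CB and from 0 to 76.2 CPM in 4CB (ratio 5.27, adjusted p 0.00130).

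Of 26 endoplasmic reticulum and amino acid stress genes 12 were tested and 1 was above the trend (8.33%, near the share over all genes), Mthfd2, a mitochondrial folate enzyme, with 16.2 to 153 CPM in 2CB and 28.0 to 272 CPM in 4CB (ratio 3.70). By DESeq2 0 and by scran 8 of the 12 were called. Of 19 immediate early and ERK target genes 10 were tested and 3 were above the trend (30%, beside 6.0% over all genes), with 0 by DESeq2 and 4 by scran. Junb and Zfp36 were highest in 4CB 3, at 108 and 116 CPM against 0 to 57.8 and 0 to 19.1 CPM in the other 4CB embryos, and Jun was highest in 4CB 4, at 321 CPM. The calls of Junb (adjusted p 0.00543), Zfp36 (0.0438) and Jun (0.0913) were all lost at equal depth, with adjusted p-values of 0.111, 0.217 and 0.375. Without 4CB 3 the adjusted p was 0.107 for Junb, 1.00 for Zfp36 and 0.141 for Jun. Zfp36 was also lost without 2CB 6 or 4CB 2, at 0.104 and 0.130, and Jun without 2CB 1, 2CB 4, 2CB 5, 4CB 4, 4CB 5 or 4CB 6, at 0.157, 0.161, 0.201, 0.316, 0.147 and 0.185. Of 16 antioxidant genes, which remove reactive oxygen, 13 were tested and 0 were above the trend by edgeR, with 0 at an unadjusted p below 0.05, 0 by DESeq2 and 3 by scran. Their score followed depth, with r = 0.86 with log total UMIs and 0.80 at equal depth.

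Of 26 G1/S genes 24 were tested and 0 were above the trend by edgeR (median ratio 0.830), with 1 at an unadjusted p below 0.05, 0 by DESeq2 and 7 by scran. Of 30 G2/M genes 27 were tested and 2 were above the trend, Cdk1 and Plk1 (median ratio 0.817), and the count was 1 without 2CB 2 and 1 at equal depth, 0 by DESeq2 and 9 by scran. The G2/M share was 7.41%, near the share over all genes. Cdk1, the mitotic kinase, stood at 37.6, 261, 101, 67.8, 29.1 and 49.0 CPM in 2CB 1 to 2CB 6 and at 55.3, 51.4, 68.8, 262, 189 and 152 CPM in 4CB 1 to 4CB 6. It was high in 2CB 2 and 4CB 4, and without 2CB 2 its adjusted p went from 0.0119 to 0.397. Plk1, the polo-like kinase of mitosis, had r = 0.69 with Cdk1 and an adjusted p of 0.0669, lost without 2CB 3, 2CB 5, 4CB 3 or 4CB 4, at 0.199, 0.225, 0.323 and 0.232, and at equal depth, at 0.126. The G2/M score was 0.881 in 2CB 2 against -0.371 to 0.0789 in the other 2CB embryos. In 4CB 4 it was 0.981 against -0.632 to 0.444 in the other 4CB embryos. These 2 embryos are the deepest of their stages, with 1507471 and 1130360 UMIs, and the part of depth was not tested. The score had r = 0.43 with log total UMIs and 0.30 at equal depth. The lowest median ratios were those of housekeeping lists: 1 of 74 tested ribosomal protein genes (Rpl34, median ratio of the list 0.327) and 2 of 66 tested nuclear genes of the electron transport chain (Cox6b2 and Uqcrb, 0.363) were above the trend. Those shares were 1.35% and 3.03%, beside 6.0% over all genes. The call of Cox6b2 (adjusted p 0.00442) was lost without 4CB 1, at 0.163, and that of Uqcrb (0.0243) without 2CB 5 or 4CB 3, at 0.185 and 0.117. DESeq2 called 0 genes of either list, and scran 3 and 5. At equal depth 0 ribosomal protein genes and 1 electron transport gene were above the trend, with adjusted p-values of 0.197 for Rpl34 and 0.196 for Uqcrb.

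Imprinted genes, expressed from one parental copy, had 18 listed, 11 tested and 3 above the trend, H19, Meg3 and Peg10, with 1 by DESeq2 and 5 by scran. The share above the trend was 27.3%, beside 6.0% over all genes. H19, a maternally expressed noncoding RNA of chromosome 7, stood at 13.4, 7.80, 106, 115, 8.45 and 101 CPM in 2CB 1 to 2CB 6 and at 18.4, 1458, 1292, 42.4, 354 and 57.2 CPM in 4CB 1 to 4CB 6. The 4CB embryos spanned a wider range than the 2CB embryos, and 4CB 2 and 4CB 3 were far above the rest (ratio 11.2, adjusted p 4.19e-18). Meg3, also maternally expressed, ran from 9.10 to 262 CPM in 2CB and from 16.1 to 193 CPM in 4CB (ratio 5.06) and had r = 0.63 with H19. Peg10, paternally expressed, ran from 0 to 31 CPM in 2CB and from 10.2 to 128 CPM in 4CB, and its call (ratio 3.67, adjusted p 0.0274) was lost without 4CB 4, at 0.106, and at equal depth, where the ratio was 1.80 and the adjusted p 0.792. Lists for other cells or earlier stages were nearly empty: of 14 oocyte genes 2 were tested and summed to 39.8 to 151 CPM per embryo over the whole list, of 11 genes of the 2-cell stage none was tested (0 to 19.1 CPM), and of 6 cumulus cell genes 1 was tested (12.3 to 166 CPM). By edgeR 0 of these genes were above the trend, with 0 oocyte and 1 cumulus gene at an unadjusted p below 0.05, 0 by DESeq2 and 2 oocyte and 1 cumulus gene by scran. In all, 1 of the oocyte, 6 of the 2-cell and 3 of the cumulus genes had no UMI in any embryo.

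Genes of the sex chromosomes varied between embryos. Xist, the RNA that coats the inactive X chromosome, stood at 360, 17.5, 534, 37.1, 517 and 107 CPM in 2CB 1 to 2CB 6 and at 214, 507, 452, 242, 634 and 25.4 CPM in 4CB 1 to 4CB 6 (ratio 6.94, adjusted p 2.76e-09). The Y-linked genes Ddx3y, Eif2s3y, Kdm5d and Uty together held 325, 164, 60 and 42 UMIs in 2CB 2, 2CB 4, 2CB 6 and 4CB 6, or 211, 265, 184 and 267 CPM, and 0 to 4 UMIs in each other embryo. The 4 embryos with Y-linked UMIs had the lowest Xist levels, and Ddx3y and Xist had r = -0.92. Of the 5 listed sex-linked genes 4 were tested and all 4 were above the trend. At equal depth 3 were, and Eif2s3y was not, with a ratio of 8.20 against 24.5 and an adjusted p of 0.665. No embryo was assigned to a class from these values.

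Besides Xist, 27 of 215 tested X-linked genes were above the trend, 12.6%, and 387 of 6742 autosomal genes, 5.74%. In the 1C and 8CB embryos the shares were 11.8% and 5.97%. At equal depth they were 6.05% and 3.41%, and with an embryo left out the X share was 8.37% to 11.6%. The median of X-linked genes minus that of autosomal genes, on the log2 scale with stage means removed, ran from -0.29 in 4CB 6 to 0.18 in 4CB 5 and 2CB 5. The span over embryos was 0.47 for the X chromosome and 0.38 for chromosome 2, the next widest.

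**Figure D4:**
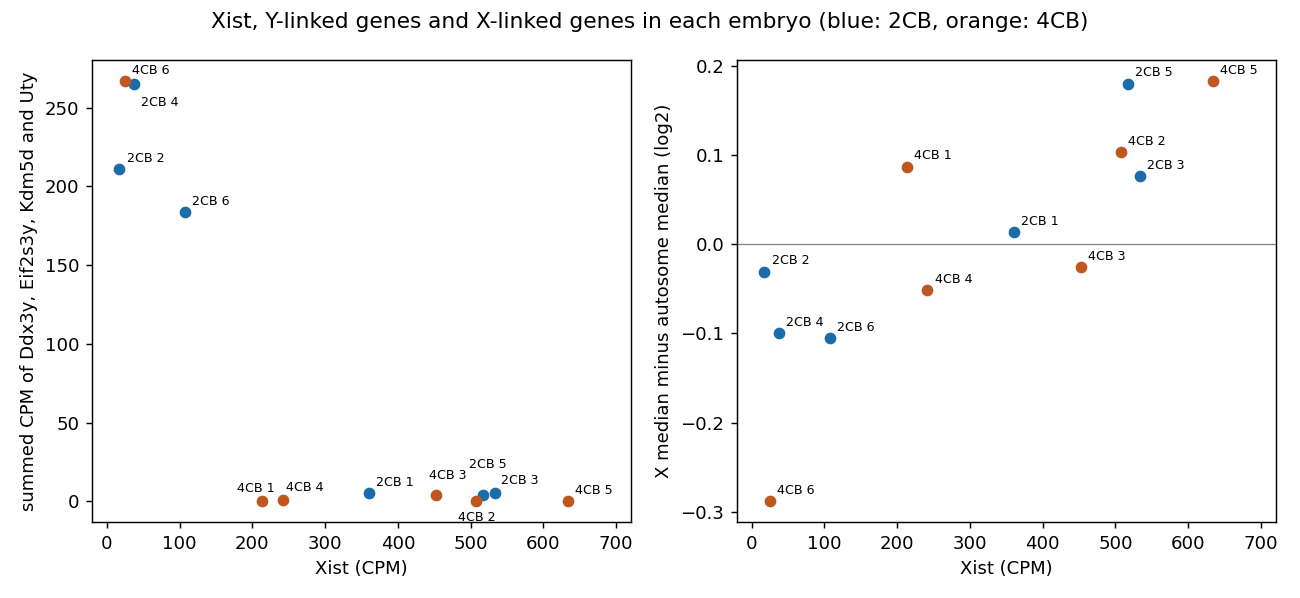
Left, summed CPM of 4 Y-linked genes against CPM of Xist in each embryo, 2CB in blue and 4CB in orange. Right, the median log2 level of X-linked genes minus that of autosomal genes against CPM of Xist. 2CB 2, 2CB 4, 2CB 6 and 4CB 6 hold the Y-linked counts at 107 CPM of Xist or less, and all others hold 214 CPM of Xist or more.

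The highest ratios outside the lists included the predicted genes Gm10800 (chr2:98666547-98667301), Gm10801 (chr2:98662237-98664083), Gm10717 (chr9:3025417-3033289) and Gm21738 (chr14:19415857-19418930). Gm10800 stood at 3599, 2782, 844, 10082, 120 and 1375 CPM in 2CB 1 to 2CB 6 and at 1696, 6680, 3054, 50.9, 3107 and 12003 CPM in 4CB 1 to 4CB 6. It was highest in 4CB 6 and 2CB 4 and lowest in 4CB 4 and 2CB 5, and the same embryos were highest and lowest for the other 3 genes, whose pairs had r from 0.96 to 1.00. All 4 genes have r between -0.60 and -0.53 with log total UMIs. Their annotated transcripts share a 49-base stretch, printed because it shows that reads of one gene may be counted for another.
Shared stretch: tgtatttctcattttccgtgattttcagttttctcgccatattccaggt

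Of the 31-base stretches of the Gm10800 transcript 25.2% also occur in that of Gm10801. The stretch resembles the major satellite repeat of mouse centromeres, which is background knowledge, since no repeat annotation was used. Gm28437 (chr1:24613189-24613971), an unprocessed pseudogene copied from mitochondrial sequence, ran from 12.2 to 771 CPM, while all 37 mitochondrially encoded genes in the table held 0 UMIs in these embryos. Gm15501, a transcribed processed pseudogene, ran from 0 to 581 CPM.

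The remaining genes of high ratio had other patterns. Spi1, the ETS factor PU.1 of blood cells, reached 437 CPM in 4CB 3, 186 in 2CB 4 and 136 in 2CB 2, and 0 to 12.3 CPM in all others except 4CB 6 at 121 CPM (ratio 18.2). Dppa5a, an RNA-binding protein of pluripotent cells, was at 199 CPM in 2CB 6 and 5.38 to 13.0 in the other 2CB embryos, and at 226, 154 and 324 CPM in 4CB 3, 4CB 4 and 4CB 6 and at most 11.1 in the other 4CB embryos (ratio 12.4).

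Ubb, a polyubiquitin gene, had no UMI in 2CB 1, 2CB 5 and 4CB 2 and 83.0 to 166 CPM in all others except 4CB 4 at 5.93 CPM (ratio 15.5). Ren1, which encodes renin, was at 3.06 CPM in 2CB 6 and 7.87 CPM in 4CB 3 and at 149 to 959 CPM in every other embryo (ratio 8.71). Ly6e, a GPI-anchored surface protein, ran from 39.0 to 1931 CPM, with 2CB 1, 2CB 4, 2CB 5, 4CB 5 and 4CB 6 at 1741 CPM or more and all others at 540 CPM or less (ratio 8.75). Ppdpf and Zscan10 had ratios of 9.79 and 8.73 and ran from 0 to 159 and from 0 to 310 CPM. Jak3, a cytokine receptor kinase, ran from 12.9 to 183 CPM in 2CB and from 0 to 244 CPM in 4CB (ratio 12.7). The high embryos differed from one of these genes to the next.

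**Figure D5:**
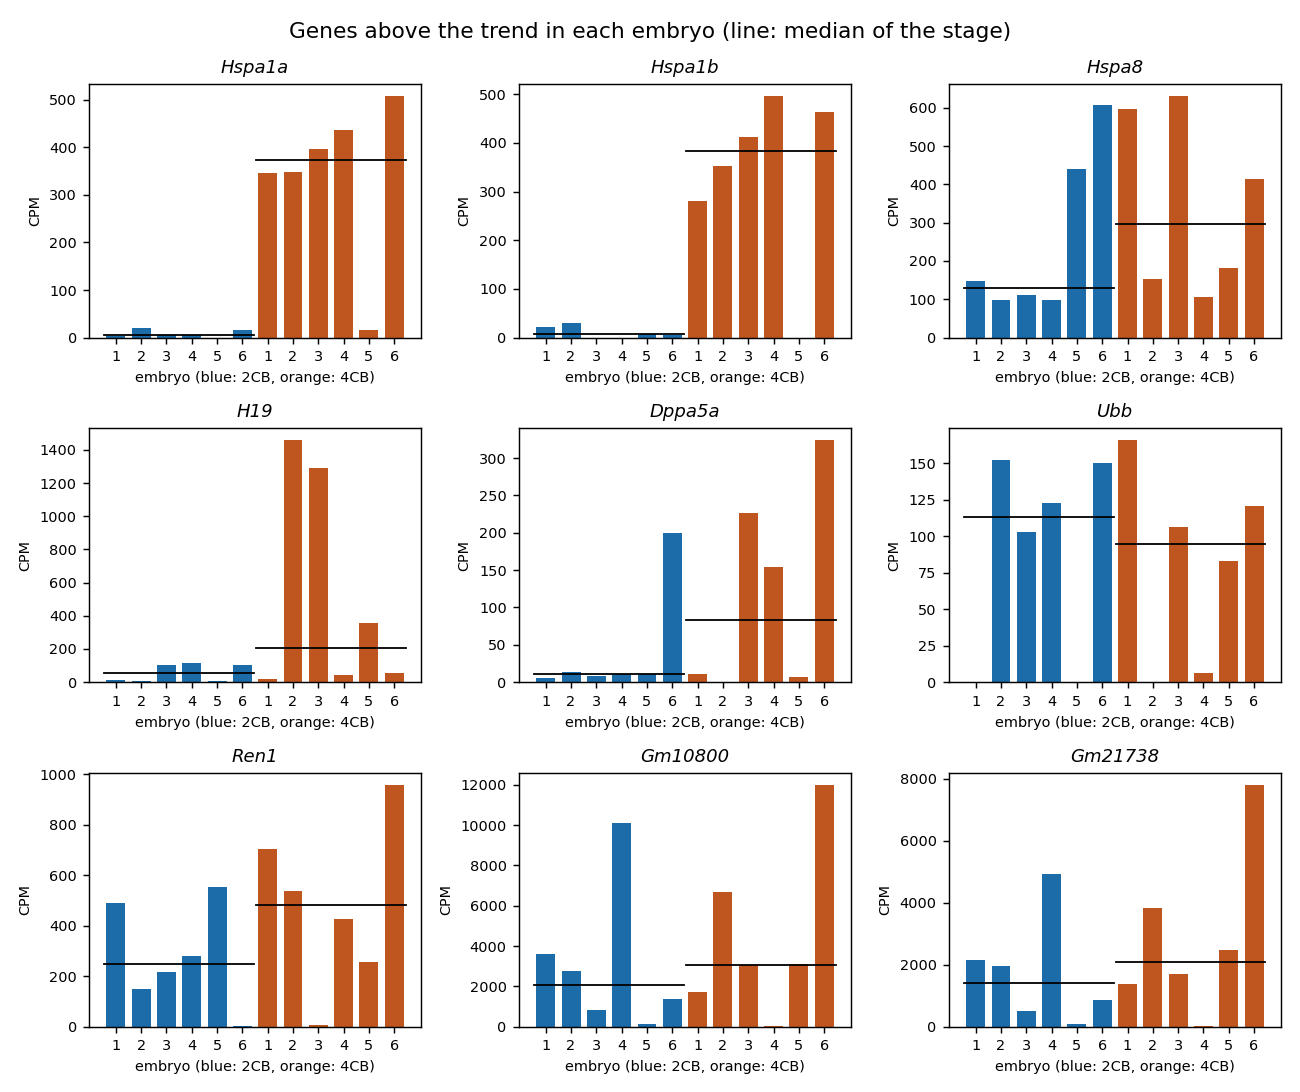
CPM of 9 genes above the trend in each embryo, 2CB in blue and 4CB in orange, with a black line at the median of the stage and the vertical axis from 0. Several genes are nearly off in some embryos and high in others, such as Ren1 in 2CB 6 and 4CB 3 and Ubb in 2CB 1, 2CB 5 and 4CB 2.

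Genes above the trend with at least 300 UMIs, 229 in all, were clustered on their correlations between embryos. At a cut of 0.5 on 1 minus r, 6 clusters of at least 10 genes held 81 of the genes. A cluster's genes were grouped by these correlations, so its own mean r is a description. Cluster D held 13 genes, among them Serpinh1, Foxq1, Flrt3, Sparc, Lama1, Col4a2, Ckap4, Dusp10 and Plod2, with a mean r of 0.68, 0.82 in 2CB and 0.54 in 4CB, 0.68 at equal depth and a correlation of 0.23 with depth. Its mean level was highest in 2CB 4, 4CB 3 and 2CB 3, at 1.98, 1.96 and 1.54. Cluster A (17 genes, mean r 0.63) held Sox17, Pdgfra and Col4a1, with a mean r of 0.31 in 2CB and 0.75 in 4CB and a correlation of 0.58 with depth. Cluster E (13 genes, mean r 0.59) held Elf5, Cebpa and Xist and was lowest in 4CB 6, at -2.71, with a mean r of 0.28 in 2CB and 0.73 in 4CB and a correlation of -0.03 with depth. Cluster F (10 genes, mean r 0.66) held Cdk1, with a correlation of 0.39 with depth. Cluster B (14 genes) had r = 0.82 with depth and cluster C (14 genes) 0.65. The genes with the highest mean r to the rest of their cluster were Gtf3c5, Pcgf2, Zfp951, Patl1 and Lmbrd1 in A, Epas1, 2300009A05Rik, Bmyc, Mef2d and Pttg1 in B, and Myef2, Mff, Chmp5, Vbp1 and Vps33b in C. They were Cebpa, Obp2a, Ak7, Cbfa2t3 and Jdp2 in E and Apbb1, Alg6, Helq, Rin1 and Cpne8 in F.

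When clusters were built in one stage alone, 11 in each, their genes held together little in the other stage. The median of their mean r went from 0.694 in 2CB to 0.0287 in 4CB, and from 0.692 in 4CB to 0.101 in 2CB, and the highest mean r in the other stage was 0.297. Among all pairs of the list scores, 7 had r of at least 0.6 in size over the 12 embryos. They were picked by size from many pairs without a test, so how many would reach that size by chance was not tested. The scores of primitive endoderm and of immediate early genes had r = 0.71, 0.62 to 0.80 with an embryo left out, and 0.65 at equal depth. Primitive endoderm and endoplasmic reticulum stress also had r = 0.71, 0.64 to 0.80 with an embryo left out, and 0.70 at equal depth. G1/S genes followed ribosomal protein genes (0.81, 0.58 at equal depth) and electron transport genes (0.76, 0.54 at equal depth), and the last 2 lists followed each other (0.66, 0.48 at equal depth). Heat shock and imprinted genes were opposed (-0.64, and -0.84 to -0.47 with an embryo left out). The trophectoderm score was opposed to a score that averaged Xist with Y-linked genes (-0.67, -0.70 to -0.61 with an embryo left out, and -0.70 at equal depth). It was -0.66 within 2CB and -0.98 within 4CB, where 4CB 6 alone held more than 2 Y-linked UMIs.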

How the data were processed

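The count table deposited by the authors holds whole-number UMI counts per gene and embryo, with no normalization. Per the submitters' processing notes, reads were aligned to GRCm38 with HISAT2 2.2.6 and counted with HTSeq 0.6.1, and DESeq2 1.10.1 was used later. The table's leading columns are laid out as featureCounts writes them. The strand setting and annotation release are not given in the sources used here. A symbol was found for 51633 of 52366 genes. Groups were taken from column names that match the sample labels, and 24 other per-sample columns, of morulae, were not used.

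Genes with at least 100 UMIs over the 12 embryos were tested. Counts were scaled by TMM in edgeR 4.0.16 (R 4.3.3), the dispersion trend was estimated with 1 mean per stage, and the deviance of each gene at that trend was tested by edgeR's goodness-of-fit function, with Benjamini-Hochberg adjustment and a threshold of 0.1. For covariation, the stage mean was subtracted from log2 CPM (prior count 2). Every embryo was also thinned once to 132725 UMIs. DESeq2 1.42.0 and scran 1.30.0 were alternatives. The scripts were tested on simulated data.

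Genes named are the 5 markers, the 20 highest ratios among genes above the trend with a mean of at least 50 CPM, up to 4 members of each list above the trend with the lowest p, the 4 genes with the highest and the 2 with the lowest r to each marker, the 5 leading genes of each cluster, and Xist with the Y-linked genes. Further members above the trend are named to complete the counts of their lists, and other genes, such as Gata6, were chosen after their values were seen. The members and lists were chosen with earlier results of these data known. Embryo numbers are used here only to name samples, and whether they carry a pairing is not stated.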

Additional observations from a re-analysis of the deposited data

Results flagged for a closer look

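In 20 of 136 groups of 6 embryos of one stage, 1 embryo lay apart from the other 5 by Dixon's test on a log scale, which chance gives in about 1 in 20 groups of values not chosen for their spread. Most of the genes examined here were chosen for their variation between embryos, and groups share embryos, so the count of 20 is not evidence of more outlying embryos than chance gives.

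4CB 6 stood apart in 6 of them. Its trophectoderm score was -1.47 against 0.167 to 0.522 in the other 4CB embryos, and its score over Xist and the Y-linked genes was 0.717 against -0.299 to 0.0136. It held 133 CPM of Ddx3y and 88.9 CPM of Uty, against at most 1.97 CPM in the others, 6.35 CPM of Eif2s3y against 0, which is 1 UMI and below the floor of 19.1 CPM, and 25.4 CPM of Xist against 214 to 634.

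4CB 4 was low for the 4 related predicted genes, with 50.9 CPM of Gm10800, 5.93 of Gm10801, 0 of Gm10717 and 29.7 of Gm21738, against at least 1696, 313, 33.2 and 1382 CPM in the other 4CB embryos. Those genes share sequence and count as 1 pattern. 4CB 5 was low for the neighbouring copies Hspa1a and Hspa1b, at 15.1 and 0 CPM against at least 347 and 280 CPM, with a floor of 22.6 CPM. 2CB 6 was high for Dppa5a, at 199 CPM against at most 13.0 in the other 2CB embryos, and low for Ren1 (3.06 against at least 149 CPM), Gdf3 (0 against at least 13.4 CPM) and Zfp36 (0 against at least 7.74 CPM). For Zfp36 and Gdf3 the floor of 3 UMIs in that embryo is 9.19 CPM.

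2CB 2 had a G2/M score of 0.881 against -0.371 to 0.0789 and the lowest Cdx2 of its stage, 47.4 CPM against 82.6 to 114. 4CB 3 was low for Ren1, at 7.87 CPM against at least 256, and 4CB 2 for Ppdpf, at 0 CPM against at least 37.7, with a floor of 19.3 CPM.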

How the results depend on the processing

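The count of 418 genes above the trend depended on the method. It was 249 of 3928 tested with a filter of 300 UMIs (6.34%, with all 229 of the calls still tested), 246 at equal depth (3.53%), 158 of 3083 at equal depth with the filter applied again (5.12%), 98 for the dispersion outliers of DESeq2 and 1546 by scran, whose trend is fitted to log values. Size factors of DESeq2, filterByExpr, no filter (404 of 21523, 1.88%, of which 287 were among the 418), a common dispersion, a threshold of 0.05 and each embryo left out (352 to 398) gave counts within 1.5 times of it. In 2CB alone the count was 79 at equal depth. With the embryo number as a replicate block it was 188, of which 177 were among the 418. The numbers follow column order, and deviations of same-numbered embryos correlated at -0.163 to 0.0755. Whether embryos of the same number share parents or a day is not stated, and correlations of this kind cannot settle it. That block raised the count of list score pairs at r of 0.6 or more from 7 to 17, and leaving out an embryo gave 7 to 12. Of the 3 marker pairs past 0.1, 0 were left with a prior count of 0.5 and 0 to 3 with an embryo left out. The 6 clusters were 2 at a cut of 0.4, 10 at 0.6 and 0 with complete linkage. The share of X-linked genes above the trend, an alternative chosen after seeing the data, was 6.05% at equal depth. The 3 marker pairs and 7 score pairs kept their sign in every setting run, but with the block r was -0.33 for Nanog and Gata4, 0.25 for primitive endoderm and endoplasmic reticulum stress, and -0.08 for heat shock and imprinted genes. Over all alternatives, 226 calls of named genes were lost, 4 were gained and 2000 stayed on their side.

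Depth limits these results: 3 UMIs stand for 22.6 CPM in 4CB 5 and 1.95 CPM in 2CB 2, and a level of 0 allows up to that much. Each embryo was sequenced once, so differences between embryos and differences of library preparation cannot be told apart.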
